A study of Mus musculus with 3 samples.

Results

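The aryl hydrocarbon receptor pathway was represented by 10 genes, taken by name from a fixed list: the receptor Ahr, its partner Arnt, the repressor Ahrr, and the target genes Cyp1a1, Cyp1a2, Cyp1b1, Tiparp, Nqo1, Aldh3a1 and Ugt1a6a. They are 10 of the 24842 genes named on the array, read by 14 of its 56605 probes, and 7 of the 10 had a probe well above background. The cells were Hepa1c1c7, a mouse hepatoma line, transfected with a Cd74 vector (the invariant chain of MHC class II), a Tmem54 vector (a transmembrane protein) or an empty vector. RNA from each was hybridised to 1 Agilent array in 1 colour, so the series has 3 arrays with 1 array per vector. The labels name no ligand of the receptor. How long after transfection RNA was taken, and whether the cells were a stable line or 1 clone, are not given in the sources used here. Probe positions below are on build mm9, as in the array files, and the exon or UTR that a probe reads was not analysed here.

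AHR is a transcription factor of the basic helix-loop-helix PAS family that waits in the cytosol with HSP90 and other chaperones. When a ligand such as a dioxin or a polycyclic aromatic hydrocarbon binds it, AHR enters the nucleus, pairs with ARNT and binds xenobiotic response elements (XREs), which carry the core GCGTG. Its best known targets are the P450 enzymes of family 1, a set of conjugating and reducing enzymes, and its own inhibitors AHRR and TIPARP. Hepa1c1c7 cells are a standard model of this pathway, because Cyp1a1 responds strongly to ligand in them and mutants of the receptor and of ARNT were isolated from them.

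The windows before the gene starts are shown for the P450 genes, for both feedback inhibitors and for Nqo1, because they show which of these genes carry the XRE core close to their start. Sequences are those of RefSeq on build GRCm38.p6, 250 bases long, 5′ to 3′ on the strand of the gene, with each match to the core on either strand in capitals. RefSeq windows matched 8 of the 10 genes, and Ahr and Aldh3a1 were the others.
Cyp1a1, chr9:57697363-57697612, plus strand: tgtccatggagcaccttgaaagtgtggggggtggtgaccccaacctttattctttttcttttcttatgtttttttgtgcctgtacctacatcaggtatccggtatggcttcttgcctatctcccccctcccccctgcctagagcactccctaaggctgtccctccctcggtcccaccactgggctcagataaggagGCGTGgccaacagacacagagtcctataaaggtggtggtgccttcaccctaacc
Cyp1a2, chr9:57683656-57683905, minus strand: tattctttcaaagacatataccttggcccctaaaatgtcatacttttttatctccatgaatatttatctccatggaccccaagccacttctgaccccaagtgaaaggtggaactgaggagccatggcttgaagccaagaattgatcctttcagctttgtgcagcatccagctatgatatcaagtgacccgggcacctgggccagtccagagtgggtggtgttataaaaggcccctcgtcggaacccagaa
Cyp1b1, chr17:79715062-79715311, minus strand: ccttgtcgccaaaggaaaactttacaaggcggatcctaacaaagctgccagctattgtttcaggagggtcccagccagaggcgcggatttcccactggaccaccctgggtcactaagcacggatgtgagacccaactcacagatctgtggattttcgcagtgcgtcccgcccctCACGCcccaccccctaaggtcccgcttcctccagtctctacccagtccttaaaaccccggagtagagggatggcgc
Tiparp, chr3:65528197-65528446, plus strand: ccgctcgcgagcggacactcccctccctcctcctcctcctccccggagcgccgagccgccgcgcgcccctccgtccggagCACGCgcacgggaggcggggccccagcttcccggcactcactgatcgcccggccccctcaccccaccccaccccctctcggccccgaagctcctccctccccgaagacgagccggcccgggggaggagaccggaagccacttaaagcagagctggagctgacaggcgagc
Ahrr, chr13:74292332-74292581, minus strand: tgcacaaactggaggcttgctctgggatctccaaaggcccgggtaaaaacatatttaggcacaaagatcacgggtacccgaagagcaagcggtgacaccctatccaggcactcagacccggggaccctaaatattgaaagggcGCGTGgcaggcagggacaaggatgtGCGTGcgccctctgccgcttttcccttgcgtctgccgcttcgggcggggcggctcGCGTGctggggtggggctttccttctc
Nqo1, chr8:107403206-107403455, minus strand: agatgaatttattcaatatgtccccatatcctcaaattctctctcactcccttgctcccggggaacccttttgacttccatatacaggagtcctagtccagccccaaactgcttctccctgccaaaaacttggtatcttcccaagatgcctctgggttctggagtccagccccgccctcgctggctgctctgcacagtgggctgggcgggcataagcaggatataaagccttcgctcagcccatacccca

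The core GCGTG, searched on both strands, lay in 5 of the 8 windows, against 28.2% of 32851 such windows in the genome. Cyp1a1 held 1 match, 54 to 50 bases before its start, and Cyp1b1 and Tiparp held 1 each on the other strand, 76 to 72 and 170 to 166 bases before. Ahrr held 3, the closest from 27 to 23 bases before the start, and that match was also the only match in the 8 windows to the longer form TNGCGTG, which 4.10% of all windows hold. Arnt, which is not a classic target of AHR, held 1 match, 29 to 25 bases before its start. The windows of Cyp1a2, Nqo1 and Ugt1a6a held none. The well studied enhancers of Cyp1a1 and Nqo1 lie further upstream, outside these windows. The antioxidant response element TGACNNNGC, bound by NRF2, had 1 match on each strand of the Arnt window, apart from the XRE core, and none in the other 7 windows. It lay in 10.2% of all windows.

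**Figure D1:**
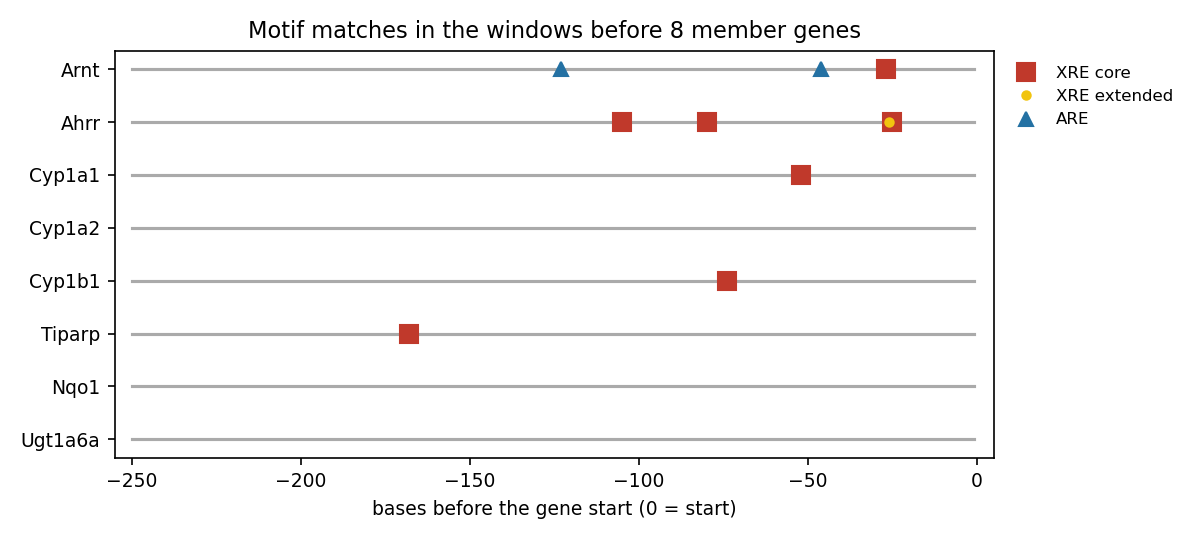
Matches to 3 motifs in the 250 bases before the start of 8 genes (x axis, bases before the start; 1 line per gene). Red squares are the XRE core, the yellow dot its longer form and blue triangles the antioxidant response element; Ahrr has 3 cores, and Cyp1a2, Nqo1 and Ugt1a6a have none.

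Most of the pathway was detected in cells with the empty vector, where Ahr, Arnt, Cyp1a1, Cyp1b1, Tiparp, Nqo1 and Aldh3a1 were well above background on the array. The same 7 genes were detected on the Cd74 and Tmem54 arrays. Ahrr, Cyp1a2 and Ugt1a6a had no probe well above background on any array. By the same rule, 15796 of all 24842 named genes were detected on at least 1 array. A count of 7 among 10 members is therefore not a result about this pathway. Each value below is a processed signal, a linear scanner intensity in arbitrary units. A probe's signal depends on its own sequence, so levels of different probes are not compared with each other. They are set only against the lowest signal that counted as well above background on the same array, which was 13.5 for Cd74, 13.9 for Tmem54 and 13.1 for empty.

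No member differed by 2-fold or more between any pair of arrays. For Cd74 against empty, 0 of the 10 genes were at least 2-fold higher and 0 lower, where 1.02% of the 15630 genes compared were higher and 1.4% lower. For Tmem54 against empty the counts were again 0 and 0, beside 0.522% higher and 0.812% lower among 15521 genes. For Cd74 against Tmem54 they were 0 and 0, beside 1.63% and 1.69% of 15423 genes. Of the 2-fold calls over all genes, 42.2% were higher for Cd74 and 39.1% for Tmem54 against empty, and centring each array on its own detected probes made these 30.1% and 30.1%. At such background shares a count of 0 among 7 measured genes is not a result about these genes. For Cd74 against empty the members farthest from 0 were Nqo1 and Cyp1a1, higher by 1.49-fold and 1.37-fold. For Tmem54 against empty they were Cyp1b1 and Aldh3a1, both lower, and for Cd74 against Tmem54 Nqo1 and Cyp1b1, both higher.

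A single array stands for each vector, so the variation between cultures is unknown and no test was run. In bulk RNA, fewer cells that express a gene and less RNA per cell cannot be told apart. The ± given with a difference is the model error of the scanner software, which for bright probes follows mainly from a preset multiplicative error of 0.1 and came to 0.20 on the log2 scale for a difference between 2 arrays. Levels are log2 signals minus the 75th percentile of the array, and differences are between these.

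**Figure D2:**
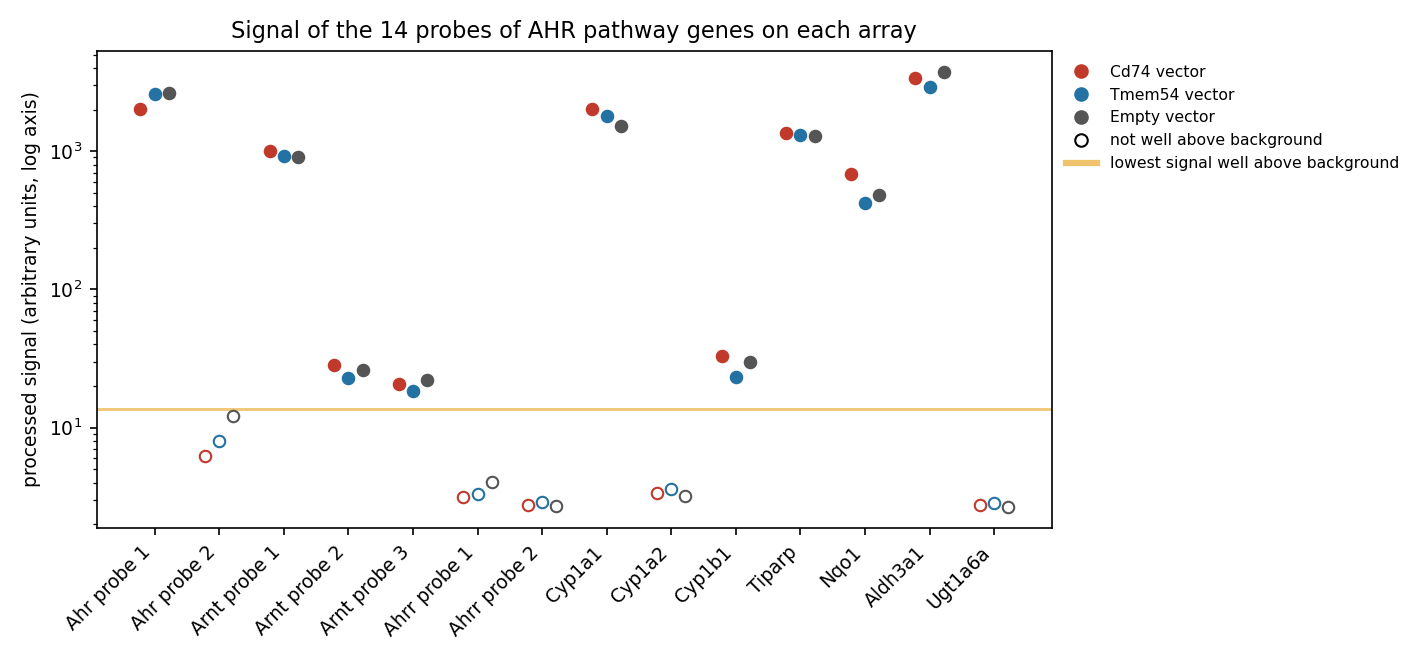
Processed signal (log axis, arbitrary units) of the 14 member probes on the Cd74, Tmem54 and empty-vector arrays. Open points are not well above background, and the band marks the lowest signal that was; both Ahrr probes, Cyp1a2 and Ugt1a6a lie below it on every array, as does the second Ahr probe.

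The receptor gene Ahr had a signal of 2009.7 with Cd74, 2571 with Tmem54 and 2618 with the empty vector (probe at chr12:36182724-36182783, mm9, minus strand). The Cd74 array was the low one, and the other arrays differed little. The difference was -0.32 ± 0.20 on the log2 scale for Cd74 against empty, -0.04 ± 0.20 for Tmem54 against empty and -0.28 ± 0.20 for Cd74 against Tmem54. Among 14693 genes measured on both the Cd74 and empty arrays, 9.85% were as low or lower than Ahr in this difference. A second Ahr probe, which lists only 1 Ensembl transcript and lies at chr12:36199083-36199142, was not well above background on any array, with signals of 6.21, 7.92 and 12.2 for Cd74, Tmem54 and empty.

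Arnt encodes the nuclear partner that AHR shares with the hypoxia factors. Its brightest probe (chr3:95301081-95301140, plus strand) gave 998 with Cd74, 926 with Tmem54 and 913 with the empty vector. The 3 arrays lay close together, with differences of 0.19 ± 0.20 for Cd74 and 0.01 ± 0.20 for Tmem54 against empty. The other probes of Arnt were dim. One at chr3:95278469-95278528 gave 28.4, 23.0 and 26.1 for Cd74, Tmem54 and empty, and one at chr3:95296147-95296206 gave 20.7, 18.3 and 22.0. Their differences from the empty vector were 0.19 and -0.02 for Cd74 and -0.20 and -0.28 for Tmem54, so that no probe of Arnt placed Tmem54 above empty by more than its model error.

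Ahrr encodes the repressor that competes with AHR for ARNT and is itself induced by AHR. Both of its probes stayed below the detection limit, with signals of 3.16 and 2.77 for Cd74, 3.30 and 2.87 for Tmem54 and 4.01 and 2.70 for the empty vector. These were between 0.21 and 0.31 times the lowest signal well above background, so no difference is given. The window before Ahrr, shown above, held more XRE cores than any single one of the other 7 windows searched.

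Cyp1a1 encodes the P450 enzyme that oxidises polycyclic aromatic hydrocarbons and is the standard readout of AHR activity. Its single probe (chr9:57551535-57551594, plus strand) had a signal of 2005 with Cd74, 1800.0 with Tmem54 and 1529 with the empty vector. It was thus well above background without any labelled ligand, at 117 times the detection limit of the empty-vector array, and it was highest with Cd74 and lowest with the empty vector. The log2 difference from empty was 0.46 ± 0.20 for Cd74 and 0.22 ± 0.20 for Tmem54, and that of Cd74 from Tmem54 was 0.23 ± 0.20. Of the genes measured on both arrays, 4.71% were as high or higher in the Cd74 difference and 5.92% in the Tmem54 difference. Both differences use the same empty-vector array.

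Cyp1a2, its closest relative and a main P450 of adult liver, was at background on every array, with 3.38 for Cd74, 3.58 for Tmem54 and 3.20 for empty (probe at chr9:57528060-57528119, minus strand). The starts of Cyp1a1 and Cyp1a2 lie 13958 bases apart on opposite strands in RefSeq's GRCm38.p6 windows.

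Cyp1b1, the extrahepatic member of the family, which also oxidises estrogens, was detected but dim (chr17:80106547-80106606, minus strand). Its signal was 33.0 with Cd74, 23.4 with Tmem54 and 30.0 with the empty vector, or 1.68 to 2.45 times the detection limit. Tmem54 was the low array, with a difference of -0.37 ± 0.33 from empty, while Cd74 differed from empty by 0.20 ± 0.29. Cd74 against Tmem54 gave 0.57 ± 0.32, which normexp background correction brought to 0.21. The same correction brought the difference of Tmem54 from empty to -0.09.

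Tiparp encodes a mono-ADP-ribosyltransferase that modifies AHR and limits its activity. Its probe (chr3:65358749-65358808, plus strand) gave 1355 with Cd74, 1302 with Tmem54 and 1293 with the empty vector. Among the targets it varied least across the 3 arrays, with differences of 0.13 ± 0.20 for Cd74 and -0.003 ± 0.20 for Tmem54 against empty.

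Nqo1 encodes the quinone reductase that is induced through both AHR and NRF2. Its probe (chr8:109912440-109912499, minus strand) gave 685 with Cd74, 419 with Tmem54 and 482 with the empty vector. Cd74 was the high array and Tmem54 the low one. The difference from empty was 0.57 ± 0.20 for Cd74 and -0.21 ± 0.20 for Tmem54. Cd74 against Tmem54 gave 0.79 ± 0.20, or 1.72-fold, which was the largest difference of any member in any comparison, and 1.80% of 14545 measured genes were as high or higher.

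Aldh3a1 encodes an aldehyde dehydrogenase that is induced by AHR ligands in hepatoma cells. Its probe (chr11:61031857-61031916, plus strand) gave 3391 with Cd74, 2893 with Tmem54 and 3709 with the empty vector. Cd74 and empty lay close together at -0.06 ± 0.20, and Tmem54 was lower than empty by -0.37 ± 0.20.

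**Figure D3:**
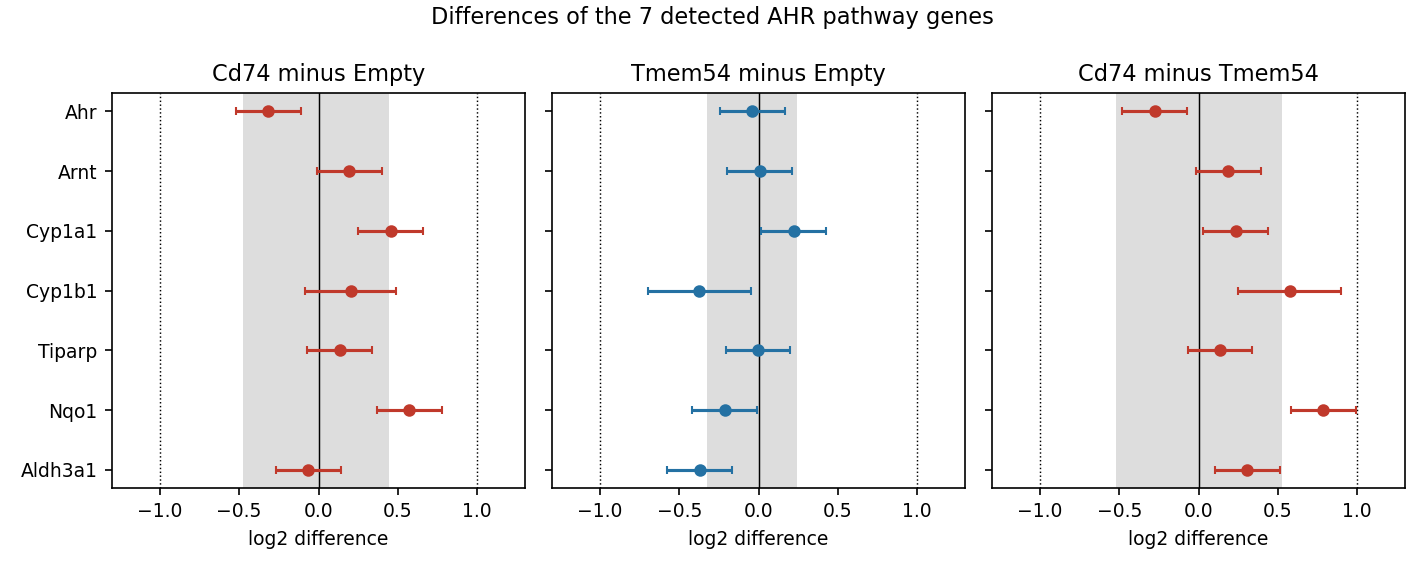
Log2 difference of the 7 detected members in 3 comparisons, with bars for the model error of the scanner software. Grey bands span the 5th to 95th percentile of all genes measured on both arrays and dotted lines mark 2-fold; Nqo1 and Cyp1a1 lie above the band for Cd74 against empty, Cyp1b1 and Aldh3a1 below it for Tmem54 against empty, Nqo1 and Cyp1b1 above it for Cd74 against Tmem54, and no member reaches a dotted line.

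Over the 7 measured members the median difference was 0.19 for Cd74 against empty, with 5 above 0 and 2 below, beside a median of 0.01 over all genes compared. For Tmem54 against empty the median was -0.04, with 2 above 0 and 5 below, beside -0.003 over all genes. For Cd74 against Tmem54 it was 0.23, with 6 above 0 and only Ahr below, beside 0.03. Of all genes measured on both arrays, 53.3%, 50.2% and 54.3% were above 0, in the same order of comparisons. The difference was larger than its model error for 3 members with Cd74 and for 4 with Tmem54 against empty, and for 5 between the vectors. The share of all genes beyond their own model error was not computed, so these counts are not a result about the members. In size, without regard to sign, the median member difference was 0.20 for Cd74 and 0.21 for Tmem54, while that of all measured genes was 0.15 and 0.07. These members were picked by name with earlier results of the data known, and the genes of a list are not replicates.

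Ugt1a6a, a glucuronosyltransferase for planar phenols, needs its neighbours to be read. Its probe (chr1:90116514-90116573, plus strand) was at background on every array, with 2.74 for Cd74, 2.85 for Tmem54 and 2.68 for empty. The genes of the Ugt1a locus join their own first exons to shared 3′ exons. A probe named for Ugt1a6b lies 1021 bases before the Ugt1a6a probe, at chr1:90115493-90115552, and the array file lists it for Ugt1a6a transcripts as well. Both probes also list further transcripts, including the one named for the Ugt1a10 probe, so neither is listed for Ugt1a6a or Ugt1a6b alone. The probe named for Ugt1a6b was bright, with 4395 for Cd74, 2412 for Tmem54 and 2956 for empty. The low signal of the named Ugt1a6a probe therefore does not show that the gene was silent, and which isoform gave the signal cannot be told from the shared probe.

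The 3 probes named for Ugt1a6b, chosen here after their values were seen, gave one order, with Cd74 highest and Tmem54 lowest. The probe shared with Ugt1a6a differed from empty by 0.64 ± 0.20 for Cd74 and -0.31 ± 0.20 for Tmem54. A probe at chr1:90114900-90114959 gave 866, 503 and 572 for Cd74, Tmem54 and empty, with differences of 0.66 and -0.20. A probe at chr1:90004249-90004308, far upstream, gave 153, 75.6 and 91.9, with 0.80 ± 0.21 and -0.29 ± 0.22. For Cd74 against Tmem54 these were 0.94, 0.86 and 1.10, the last past 2-fold. The probes may share transcripts and are not independent samples.

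**Figure D4:**
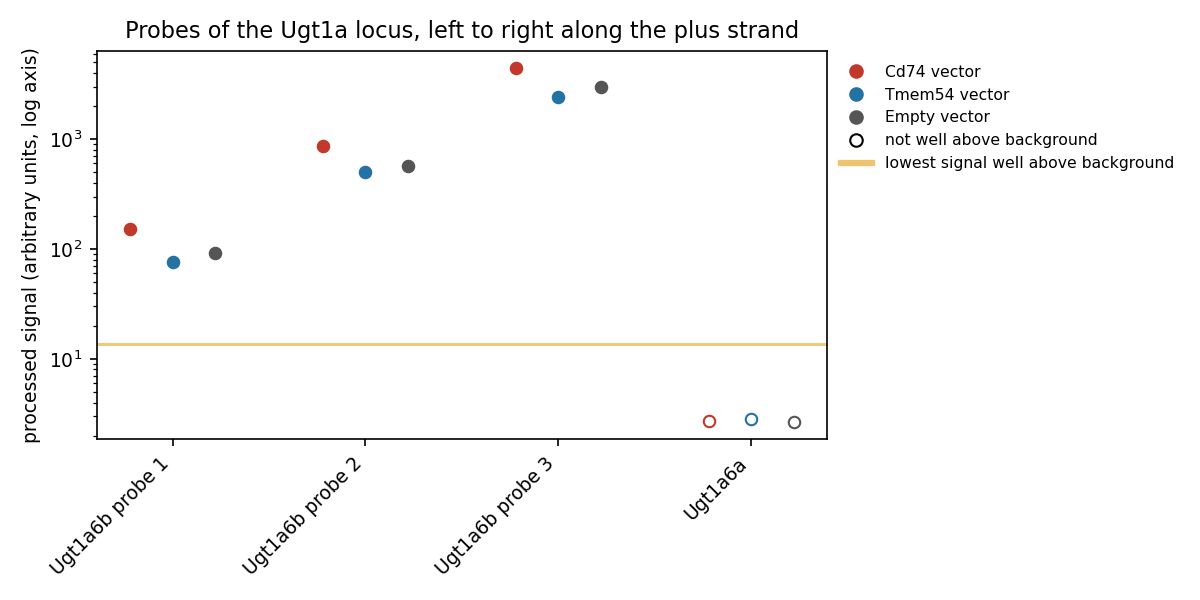
Processed signal (log axis, arbitrary units) of 4 probes of the Ugt1a locus on the Cd74, Tmem54 and empty-vector arrays, in order along the chromosome and not to scale. All 3 Ugt1a6b probes are well above background with Cd74 highest, and the Ugt1a6a probe lies below the limit on every array.

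The other parts of the pathway came from lists chosen with earlier results known. Their counts of genes 2-fold apart are therefore not a result about the lists. Against empty, the shares over all genes compared were 1.02% higher and 1.4% lower for Cd74, and 0.522% and 0.812% for Tmem54. The cytosolic complex that holds AHR was close to even. All 5 of its genes were detected, 0 were 2-fold apart, and the median was 0.10 for Cd74 and -0.02 for Tmem54 against empty. The chaperone gene Hsp90aa1 differed by 0.17 ± 0.20 for Cd74, and the kinase gene Src by 0.21 ± 0.20. For Tmem54 the farthest were Src at -0.10 ± 0.20 and the co-chaperone gene Ptges3 at -0.08 ± 0.20. Cd74 against Tmem54 gave 0.31 for Src and 0.19 for Hsp90aa1. The next-brightest Src probe turned the sign in all 3 comparisons, with -0.05 for Cd74 and 0.17 for Tmem54 against empty and -0.22 for Cd74 against Tmem54. Of 16 PAS partners and coactivators, 13 were detected and 0 were 2-fold apart, with medians of 0.06 and 0.04. Arnt2, the other ARNT form, was not well above background on any array. The hypoxia factor gene Epas1 had 157, 200.0 and 225 for Cd74, Tmem54 and empty, and its difference from empty was -0.45 ± 0.21 for Cd74. The circadian gene Clock had 442, 418 and 372, and differed from empty by 0.31 ± 0.20 for Cd74 and 0.16 ± 0.20 for Tmem54. Its next-brightest probe gave -0.06 and -0.05.

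Among 20 other genes reported as induced by AHR, 15 had a probe under their name. Gsta1, Ugt1a2, Ugt1a5, Ugt1a7c and Ugt1a9 had none and were not assessed. Of the 15 genes, 10 were detected, with a median of -0.03 for Cd74 and -0.14 for Tmem54. The glutathione transferase gene Gsta2 was the only one 2-fold apart from empty, with 214 for Cd74, 43.2 for Tmem54 and 94.0 for empty. It was higher with Cd74, by 1.25 ± 0.21, and lower with Tmem54, by -1.13 ± 0.23, so the arrays stood on opposite sides of the control. With normexp correction these became 0.88 and -0.61, under 2-fold. The P450 gene Cyp2s1 ran the other way, with 983 for Cd74, 2296 for Tmem54 and 1746 for empty, and differed by -0.76 ± 0.20 and 0.38 ± 0.20 from empty. Cd74 against Tmem54 gave 2.38 for Gsta2 and -1.15 for Cyp2s1.

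Tryptophan and kynurenine enzymes make natural ligands of AHR or remove their precursors. Of 12 genes, 9 were detected, with medians of 0.05 for Cd74 and 0.09 for Tmem54 against empty. With Cd74, 2 were at least 2-fold higher than empty, beside 1.02% of all genes compared. Both differences are bounds, and Kynu was detected through the Cd74 array alone, where it was high. Kynu, for kynureninase, had 222 with Cd74 and was not well above background with Tmem54 (3.02) or empty (2.78), which made it at least 17.7-fold higher than empty and at least 16.8-fold higher than Tmem54. This came from 1 probe, at chr2:43459748-43459807, and the other 2 Kynu probes were at background on every array, between 2.70 and 3.41. Ido2, for an indoleamine dioxygenase, gave 73.0 with Cd74, 18.2 with Tmem54 and 11.6 with empty, where it was not well above background, and was at least 5.83-fold higher with Cd74. With normexp correction its difference was 0.92 from empty and 0.74 from Tmem54, both under 2-fold. Its other probe gave 15.6, 14.6 and 14.9, a difference of 0.13 ± 0.44 from empty. With Tmem54, 0 of the 8 genes compared were 2-fold apart from empty, and the farthest were Ddc, for aromatic amino acid decarboxylase, at 0.34 ± 0.21 and Tdo2, for tryptophan dioxygenase, at -0.18 ± 0.32.

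Family 1 enzymes need heme and electrons from other proteins. All 8 genes of this supply were detected, with medians of -0.002 and -0.07 for Cd74 and Tmem54 against empty. The heme oxygenase gene Hmox1, which degrades heme and is an NRF2 target, was the only one past 2-fold, at 1.93 ± 0.20 for Cd74 and -0.33 ± 0.20 for Tmem54. Alas1, for the rate-limiting enzyme of heme synthesis, had 6504, 4197 and 4803 for Cd74, Tmem54 and empty, and differed from empty by 0.50 ± 0.20 for Cd74 and -0.21 ± 0.20 for Tmem54. Cd74 against Tmem54 gave 0.71 ± 0.20 for Alas1. The 12 NRF2 pathway genes, which share Nqo1 as a target, had medians of 0.17 for Cd74 and -0.04 for Tmem54. Hmox1 and the cystine transporter gene Slc7a11 (1.57 ± 0.20) were 2-fold higher with Cd74, and Slc7a11 (-1.28 ± 0.21) was 2-fold lower with Tmem54, which normexp correction brought to -0.90, under 2-fold. Both differences rest on the same empty-vector array. Over all genes compared, 1.02% were at least 2-fold higher with Cd74 and 0.812% at least 2-fold lower with Tmem54 against empty. Set side by side, with the choice made after the values were seen, Nqo1, Gsta2, Hmox1 and Slc7a11 had Cd74 above empty and Tmem54 below it, while Cyp1a1 was above empty on both arrays. Not all NRF2 pathway genes had that order. Srxn1 and Gsr were above empty on both arrays, Keap1 was below on both, and G6pdx and Me1 had the reverse order. Gsta2 is from the list of AHR-induced genes, where Ugt1a6b, Xdh and Htatip2 also had Cd74 above empty and Tmem54 below it. Whether the order belongs to either pathway was not tested.

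**Figure D5:**
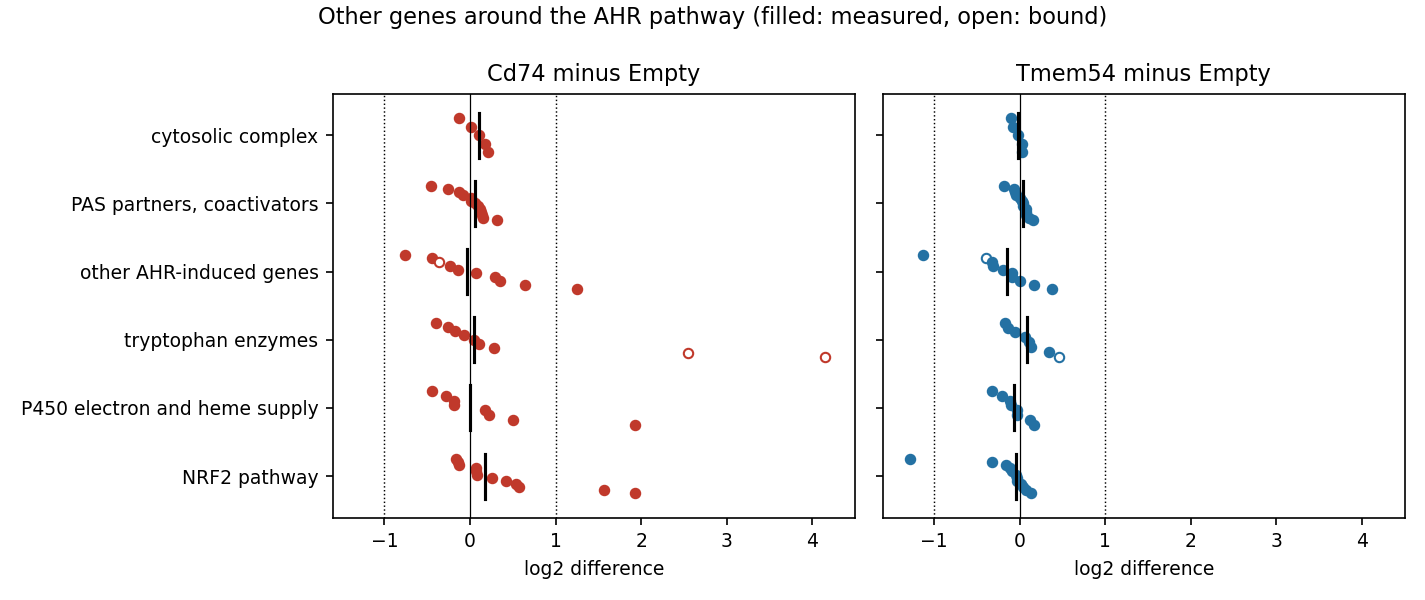
Log2 difference from the empty-vector array of the genes in 6 lists around the pathway, for Cd74 (left) and Tmem54 (right). Filled points were measured on both arrays, open points are bounds, black bars are list medians and dotted lines mark 2-fold; the far open points for Cd74 are Kynu and Ido2.

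On the arrays as a whole, between 55.7% and 57.2% of spots other than controls were well above background, 0 were saturated, and all 3 arrays lay on 1 slide. Of the member probes 0 carried an outlier flag. The transfected genes checked the labels, since Tmem54 had a signal of 19747 on its own array against 2.78 with the empty vector, and Cd74 had 10856 against 26.8. Hepatocyte markers were detected in part, 6 of 12 on each array, with Alb at 2993, 10261 and 5727 for Cd74, Tmem54 and empty, Afp detected, and Ttr, Apoa1 and Hnf4a not well above background. Markers of other cells were detected too, namely 6 of 7 for fibroblasts and stellate cells on each array, 3 of 6 for endothelium, 3 of 4 for cholangiocytes, 4 or 5 of 7 for macrophages and 2 or 3 of 5 for B and T cells. The summed signal of the hepatocyte list was 66779 for Cd74, 91214 for Tmem54 and 82156 for empty, and that of the fibroblast list 81371, 69306 and 77637. Such sums follow the brightest probes, and Dcn alone gave 75618, 57024 and 67724 of the fibroblast sums. Gene by gene, 5 of the 6 fibroblast genes were below empty with Cd74 (median -0.28) and 5 above it with Tmem54 (median 0.23). For the 6 hepatocyte genes the medians were -0.26 and 0.07, with 4 below empty for Cd74 and 5 above it for Tmem54. The part of these markers in the member differences was not tested.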

How the data were processed

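Per the submitters' processing notes, the authors extracted the scans with Agilent Feature Extraction (version 12.0.3.1). Each deposited file gives the processed signal of every spot as a linear intensity, detrended across the array by the software per the file headers, beside its model error and its detection flags. Probe positions are on mm9. The deposited table of values holds the same signal divided by 1 constant per array, as a comparison with the scanner files showed, and served as an alternative.

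Control and outlier-flagged spots were left out. Levels are log2 signals minus the array's 75th percentile over spots other than controls. Spots of a probe were averaged, and a gene was read by its brightest detected probe, detected meaning well above background on 1 array or more. Where a single array of a pair passed, the difference is a bound against the lowest such signal. Symbols came from RefSeq on GRCm38.p6, by accession for 33767 probes, and 12662 stayed unnamed. The 10 member genes were found by the name in the array files. Genes were called at 2-fold.

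Each vector has 1 array, so no test was run, and the number of arrays limits the precision. The SD of spots printed 10 times had a median of 0.038 to 0.041 (log2) per array, within an array only. The members and lists were chosen with earlier results of these data known. Named genes were all members, list genes past 2-fold or else the 2 with the largest measured difference per list, and the 3 genes closest to Cyp1a1 in pattern. The steps were tested on simulated data. Alternatives were normexp with an offset of 50 (limma 3.58.1), other centrings, other filters on dim probes, next-brightest probes, the value table and a 1.5-fold threshold.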

Additional observations from a re-analysis of the deposited data

How the results depend on the processing

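No member was 2-fold apart in any comparison under any setting that kept the 2-fold threshold. With a 1.5-fold threshold 1 member was higher for Cd74 against Tmem54 (Nqo1) and 0 in the other comparisons. The member median ranged from 0.07 to 0.19 for Cd74 against empty, from -0.17 to -0.02 for Tmem54 against empty and from 0.16 to 0.24 between the vectors. Of 129 member values under alternatives, 127 moved by less than their model error, but not every setting could move a member against the others. The filters on dim probes left the detected members unchanged. Other centrings and the value table shifted all members of a comparison by the same amount. Only normexp correction and the next-brightest Arnt probe could do more. They gave the 2 values that moved further, Cyp1b1 for Cd74 against Tmem54 and Arnt for Tmem54 against empty. Among the 129 values 6 turned sign, all for Arnt or Tiparp with Tmem54, where the differences were near 0. Values ranged from 0.33 to 0.47 for Cyp1a1 and from 0.45 to 0.57 for Nqo1 with Cd74 against empty, and from 0.09 to 0.26 for Cyp1a1 with Tmem54. Centring each array on its own detected probes, chosen after seeing the data, moved the median of all genes to -0.11 for Cd74 and -0.13 for Tmem54 against empty, and the member values with it. The share of 2-fold calls that were higher was then 30.1% for Cd74 against 42.2% as reported, and 30.1% for Tmem54 against 39.1%. Normexp correction left 58 higher and 61 lower genes for Cd74, 32 and 34 for Tmem54 and 94 and 103 between the vectors, against 160 and 219, 81 and 126, and 251 and 261 as reported. Without bounds 62 and 130, 31 and 61, and 140 and 170 genes remained to be counted in the same order. With no filter on dim probes the counts were 753 and 860, 515 and 836, and 946 and 756. At 1.5-fold they were 529 and 647, 205 and 386, and 782 and 739. Among the members, Arnt alone has a next-brightest probe that was detected. Kynu became 2.17 with normexp correction and 6.38 with no filter, on the log2 scale, for Cd74 against empty. Of 302 values of list genes, 21 moved by more than their model error, and 0 of those at least 2-fold apart as reported turned sign. Here too the centrings and the value table shifted a comparison as a whole, and the filters on dim probes altered or dropped bounds only. Next-brightest probes turned the sign of Src, Clock and Arntl in all 3 comparisons, for Cd74 against empty to -0.05, -0.06 and 1.61, and of Ido2 for Tmem54 against empty to -0.04. Centring on each array's own detected probes turned Ptges3 (-0.02) and Tdo2 (-0.07) for Cd74 and Arntl (-0.05) for Tmem54 against empty. Normexp correction took Gsta2 (0.88 for Cd74, -0.61 for Tmem54), Ido2 (0.92 for Cd74) and Slc7a11 (-0.90 for Tmem54) under 2-fold against empty, and Ido2 (0.74) for Cd74 against Tmem54. No paired analysis was possible because each vector has 1 array. Dim genes such as Cyp1b1 lie close to the detection limit, which sets what can be read there.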

Other observations

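Across the 3 arrays, the genes whose pattern was closest to that of Cyp1a1 were Angptl2, Fyb and Isoc2b, out of 14472 ranked by the distance between centred log2 values. Their distances were 0.004, 0.016 and 0.023. With 3 arrays such a pattern is common, since 148 genes lay within 0.1.

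Probes of the clock gene Bmal1, a PAS-domain relative of Arnt listed as Arntl on the array, disagreed. Its brightest probe had 505 with Cd74, 673 with Tmem54 and 633 with the empty vector, a difference of -0.26 ± 0.20 for Cd74 against empty. The next probe, at chr7:120439030-120439089 (mm9), had 323, 84.7 and 110.3, a difference of 1.61 ± 0.21 for Cd74 and -0.39 ± 0.21 for Tmem54. A further probe, at chr7:120435023-120436706, gave -0.16 for Cd74 against empty. Only 1 of the 3 detected probes was thus higher with Cd74, and what that probe reads was not tested.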
